A study of Mus musculus with 6 samples.

Results

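The transcripts described here encode plasma proteins that the liver is best known for: clotting factors, carriers of hormones, vitamins and haem, complement and other soluble recognition proteins, protease inhibitor chains and the iron hormone hepcidin. The set names 40 genes, and its members are all probe sets whose platform annotation gives 1 of these genes and no other. There were 44 such probe sets for 35 genes, out of 12422 probe sets used and 8251 genes named by the annotation: 16 for clotting, 9 for carriers, 13 for complement, 5 for inhibitors and 1 for hepcidin. Gc, C3, C8b and Cfd were not analysed here, and the 2 probe sets annotated to C4a and C4b together were left out of the set.

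Signals came from medullary thymic epithelial cells of Aire-deficient mice, in which both copies of the autoimmune regulator gene were disrupted, and of wild-type mice. Each genotype had 3 arrays, and each array the RNA of cells pooled from the thymi of 5 mice of both sexes. All animals were B6/129 F2 crosses aged 3 to 5 weeks. The cells were sorted as CD45-, G8.8+, CDR1int and B7.1hi, and their RNA went through 2 rounds of T7-based amplification. The labels name neither the part of Aire that was disrupted nor single animals, so the 3 arrays of a genotype differ by pool, amplification and hybridisation together, and pooled mice of a mixed background limit what 1 array can say of any animal.

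The thymic medulla is known for transcribing genes of many peripheral organs, so that developing T cells meet those self proteins before they leave the thymus. Aire, a nuclear protein of these epithelial cells, is known to be needed for a large share of such ectopic transcripts. In hepatocytes the genes considered here are driven by a network of liver transcription factors that includes the HNF1, HNF4, FOXA and C/EBP families, and many belong to the acute phase response to interleukin 6.

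Some facts of the whole series bear on every value below. Signals are in arbitrary units after quantile normalization, with a floor of 1.8, the pooled 20th percentile, and a dim limit of 5.53, the pooled 40th percentile. A probe set was tested if it lay above the dim limit on at least 3 of the 6 arrays. Differences are Aire-deficient minus wild-type on the log2 scale, group values are geometric means, SD and SE refer to log2 values, and a probe set is called at an adjusted p under 0.05 in limma. A fold is given as "at least" where all 3 arrays of the dimmer group lay under the dim limit, as the brighter group's mean over that limit. This main fit was unpaired. A second fit took arrays of the 2 genotypes with the same replicate number as pairs, with the number as a block. Values from the fit with the block are given where they change a call. Beta-actin signal at the 3' end over that at the 5' end, a sign of RNA quality or amplification, was 4.38 to 13.4 on the Aire-deficient arrays, against 5.42, 95.8 and 13.8 on wild-type arrays 1 to 3. The Aire probe set itself gave 202, 297 and 211 on the Aire-deficient arrays, against 59.9, 96.4 and 138 on the wild-type arrays, and since its place in the gene is not stated in the labels or the annotation, it does not check the genotype (adjusted p = 0.0918, or 0.0191 with the block). Of 15 probe sets for 11 markers of medullary thymic epithelium 12 were bright enough to be tested. Those for keratins 5 and 14 (Krt5 and Krt14) lay under the dim limit on all 6 arrays. Keratin 17 (Krt17) averaged 121 in Aire-deficient and 118 in wild-type cells on its brightest probe set. The marker Cldn4 averaged 143 in Aire-deficient and 159 in wild-type cells. Epcam, the gene of the G8.8 antigen, averaged 89.2 in Aire-deficient and 197 in wild-type cells (adjusted p = 0.118, or 0.0315 with the block). Cd80, the gene of the sort marker B7.1, averaged 11.1 in Aire-deficient and 4.19 in wild-type cells on 1 probe set (adjusted p = 0.152) and 14.5 in Aire-deficient and 8.74 in wild-type cells on the other (0.482). Ctss, a protease of antigen presentation, averaged 923 in Aire-deficient and 544 in wild-type cells (0.271), and the median difference over the 15 was 0.23.

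In the Aire-deficient cells Fgg, which encodes the fibrinogen gamma chain, and the inhibitor genes Itih3 and Ambp fell, each to a signal under the dim limit on all 3 arrays. No member was called higher in limma, although 1, Hamp, was higher at an unadjusted p under 0.05, against 11 lower. Over all 7768 tested probe sets, 1.38% were called lower and 0.348% higher, and at an unadjusted p under 0.05 in limma 607 were lower and 500 higher. Of the 44 member probe sets 26 were tested, and the other 18 were too dim. The 3 called passed the filter through their wild-type arrays alone, so their count is given as a description, and without a filter 0 of the 44 were called lower. With the replicate number as a block 7 were called lower and 0 higher, where the block called 3.37% of all tested probe sets lower and 1.93% higher. The 4 added by the block were the probe sets of Fgb, Kng1, Hp and Rbp4.

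Without regard to the filter or a variance model, the genotypes separated completely by 2-fold or more in the lower direction for 14 of the 44 probe sets, against 4.28% of all 12422, and in the higher direction for 1, against 3.32%. Separation of any size was found for 16 lower and 3 higher members, against 7.86% and 8.02% of all probe sets. The median difference over all 44 was -0.38, beside 0.00 over all probe sets. By subgroup the medians were -0.54 for clotting, -1.35 for carriers, -0.17 for complement and 0.23 for inhibitors. With 5 inhibitor probe sets, the last median was the value of Itih2, which lay under the dim limit on all 6 arrays. The 2 tested, of Itih3 and Ambp, differed by -3.01 and -3.04. Itih1 and Pzp, at 1.81 and 0.66, were too dim to be tested. The complement median lay above 0 in some of the alternative settings, at 0.04 without wild-type array 2 and at 0.02 without Aire-deficient array 2. With the floor raised to the dim limit, the median over all 44 was -0.07. Signals lay above the dim limit on all 3 Aire-deficient arrays for 14 of the 44 probe sets and on all 3 wild-type arrays for 21. That is 31.8% for Aire-deficient and 47.7% for wild-type arrays, beside 49.8% and 48.7% of all probe sets in the same order. In pooled cells, fewer cells with a transcript and less of it per cell cannot be told apart.

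**Figure D1:**
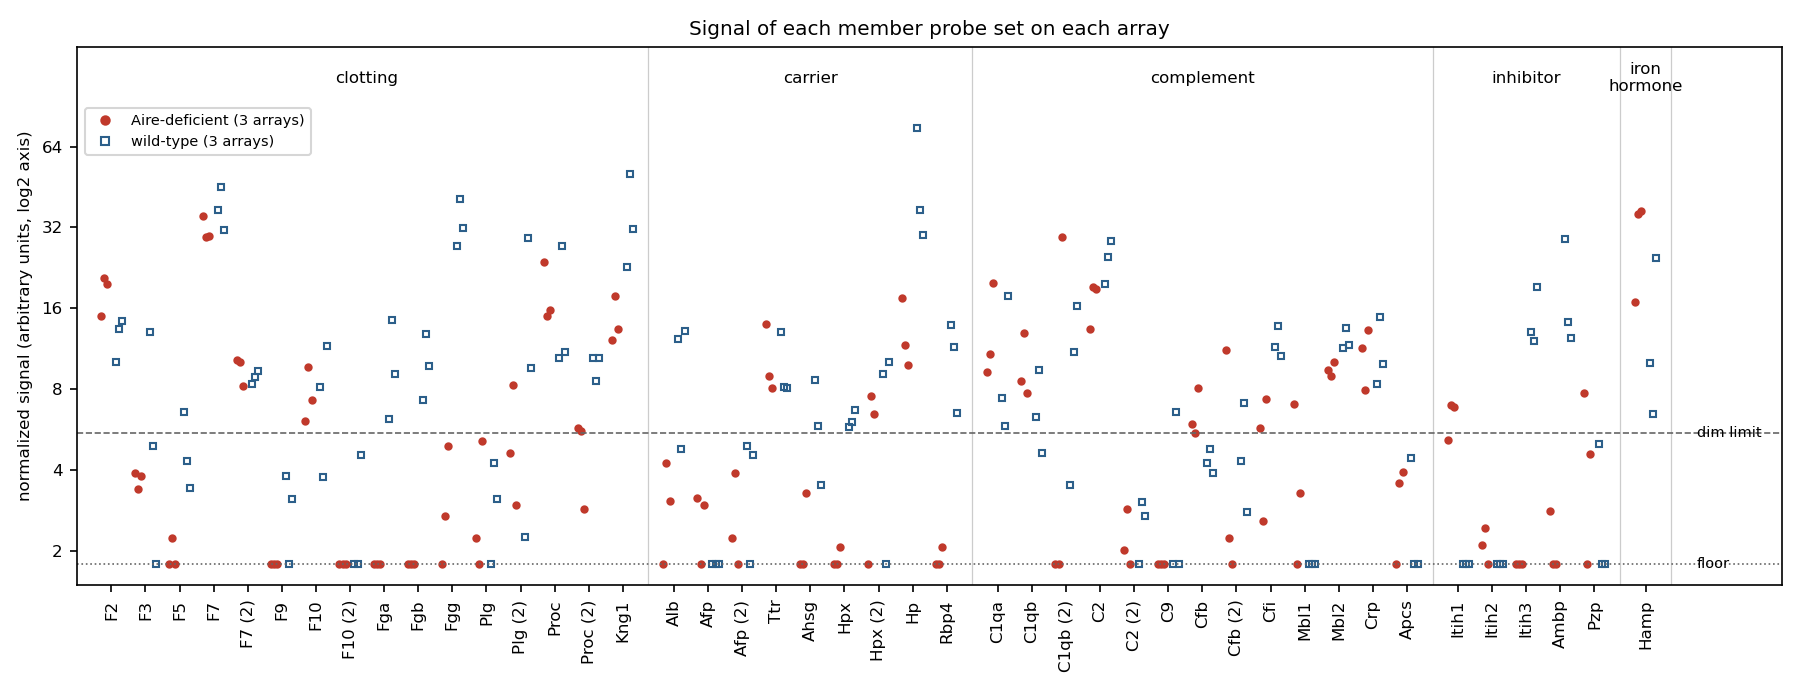
Normalized signal (log2 axis, arbitrary units) of the 44 member probe sets on each of the 3 Aire-deficient (filled circles) and 3 wild-type arrays (open squares), by subgroup; a number in brackets marks the second probe set of a gene, and the lines mark the floor of 1.8 and the dim limit of 5.53. The Aire-deficient arrays of Fga, Fgb and Itih3 all sit at the floor, while the genotypes overlap for F7, Ttr and Crp.

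Fgg had the largest difference among the clotting probe sets. Fibrinogen, the precursor of the fibrin clot, is assembled from alpha, beta and gamma chains encoded by Fga, Fgb and Fgg, which lie side by side on chromosome 3. Fgg had signals of 1.8, 2.7 and 4.93 on Aire-deficient arrays 1 to 3, against 27.3, 41 and 31.9 on wild-type arrays 1 to 3. All Aire-deficient arrays were far below all wild-type arrays, and the means were 2.88 (SD 0.73, n = 3) in Aire-deficient and 32.9 (SD 0.30, n = 3) in wild-type cells, at least 5.95-fold lower in the Aire-deficient cells (log2 difference -3.51 ± 0.44 SE, adjusted p = 0.00413 in limma). The call was lost when no filter was set on dim signals (adjusted p = 0.0861). It held without each array in turn when the processing of the 6 arrays was kept, while Fgg was not tested when the filter was run anew without any 1 wild-type array.

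Fga and Fgb were also lower on every Aire-deficient array than on any wild-type array. Fga did not exceed the floor of 1.8 on any Aire-deficient array, against 6.2, 14.5 and 9.15 on the wild-type arrays. This came to at least 1.69-fold and did not pass the threshold (log2 difference -2.38 ± 0.60 SE, adjusted p = 0.0821 in limma, or 0.0567 with the block). Fgb was also at the floor on all 3 Aire-deficient arrays, against 7.33, 12.8 and 9.75 on the wild-type arrays. The difference was at least 1.76-fold (log2 difference -2.43 ± 0.57 SE, adjusted p = 0.064 in limma, or 0.0476 with the block). With the floor at the 40th percentile the differences were -0.76 for Fga and -0.81 for Fgb. On wild-type array 2, the one with the high 3' to 5' ratio, each of the 3 chains had its highest signal. With that ratio as a covariate the differences were -3.16 for Fgg (adjusted p = 0.00932), -2.02 for Fga (0.21) and -2.20 for Fgb (0.16).

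The promoters of the 3 chains are shown because the genes are neighbours and Fgg was called. Each covers 250 bases before to 50 bases after the annotated start (RefSeq, GRCm38.p6, strand of the gene), and capitals mark matches on either strand to any of 5 short motifs: the TATA box motif TATAAA, the HNF1 core motif GTTAAT, the C/EBP motif TTGCNNAA, the motif CTGGGA known from interleukin 6 response elements, and the nuclear receptor core motif AGGTCA. The motifs were chosen with the results known, and no matches overlapped in the promoters shown.
Fgg promoter, chr3:83007474-83007773, plus strand: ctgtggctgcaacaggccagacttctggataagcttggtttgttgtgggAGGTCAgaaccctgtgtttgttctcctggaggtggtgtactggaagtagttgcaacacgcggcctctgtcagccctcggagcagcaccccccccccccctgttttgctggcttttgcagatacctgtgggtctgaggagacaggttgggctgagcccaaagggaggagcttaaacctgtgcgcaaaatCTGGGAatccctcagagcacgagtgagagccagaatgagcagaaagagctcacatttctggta
Fga promoter, chr3:83025903-83026202, plus strand: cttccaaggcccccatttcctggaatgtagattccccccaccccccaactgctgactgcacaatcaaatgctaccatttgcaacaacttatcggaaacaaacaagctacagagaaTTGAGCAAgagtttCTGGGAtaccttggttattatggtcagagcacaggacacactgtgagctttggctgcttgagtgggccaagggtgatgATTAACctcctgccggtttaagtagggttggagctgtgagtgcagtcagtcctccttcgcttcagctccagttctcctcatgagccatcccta
Fgb promoter, chr3:83049814-83050113, minus strand: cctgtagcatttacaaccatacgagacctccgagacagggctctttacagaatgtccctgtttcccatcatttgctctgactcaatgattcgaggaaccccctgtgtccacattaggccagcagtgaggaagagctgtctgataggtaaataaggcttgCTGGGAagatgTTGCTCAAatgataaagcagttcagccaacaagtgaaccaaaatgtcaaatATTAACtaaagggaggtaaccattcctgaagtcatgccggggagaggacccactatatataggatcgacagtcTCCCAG
The motif CTGGGA was found in all 3, at 13 bases before the start in Fgg, 121 before in Fga and 91 before in Fgb, with another match inside the first 50 bases of Fgb. Fga and Fgb each also held the HNF1 core, 43 and 29 bases before the start, and the C/EBP motif, 135 and 80 bases before it. Fgg held neither, and had a nuclear receptor core 201 bases before its start. Among all 32851 promoters of the table, 31.8% held CTGGGA, 7.1% the HNF1 core, 10.8% the C/EBP motif, 16.3% the nuclear receptor core and 13.6% the TATA box. Of the 27 promoters that matched 26 member genes, 11 held CTGGGA, 7 the HNF1 core, 10 the C/EBP motif, 9 the nuclear receptor core and 5 the TATA box. A match in these letters is not evidence that a factor binds there.

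**Figure D2:**
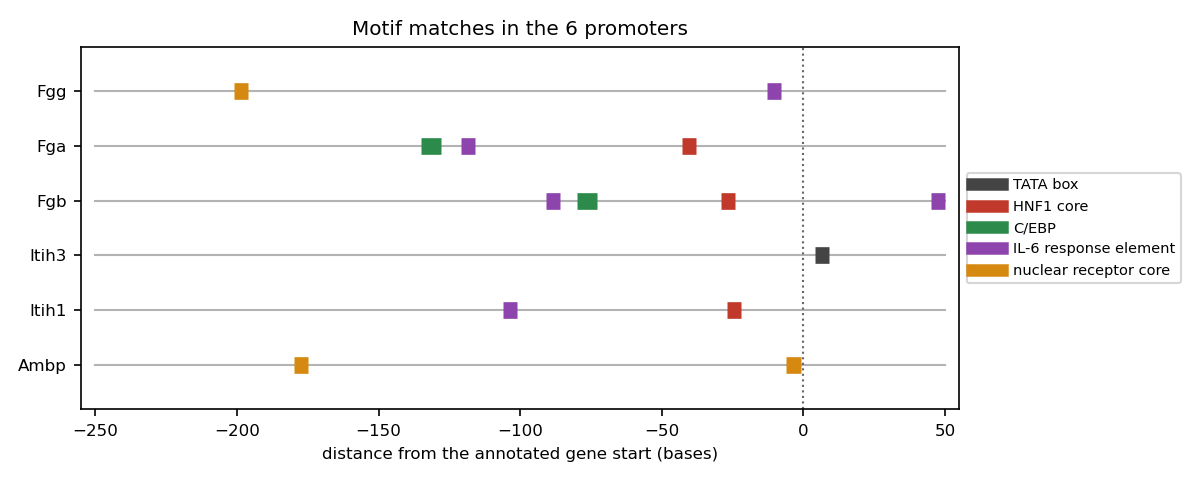
Positions of the 5 motifs in the promoters of Fgg, Fga, Fgb, Itih3, Itih1 and Ambp, as distance in bases from the annotated gene start (dotted line); each coloured block is 1 match on either strand. The HNF1 core lies upstream of Fga, Fgb and Itih1, and the C/EBP motif upstream of Fga and Fgb.

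The other clotting members were mixed. Kng1 encodes kininogen, which carries the vasoactive peptide bradykinin and takes part in contact activation. Its signals were 12.2, 17.8 and 13.4 on the Aire-deficient arrays, against 22.8, 50.4 and 31.5 on the wild-type arrays. The groups did not overlap, and the means of 14.2 in Aire-deficient and 33 in wild-type cells differed by -1.21 ± 0.37 SE (adjusted p = 0.152 in limma, or 0.0356 with the block).

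The vitamin K dependent factors did not pass the threshold, with or without the block. F2, the prothrombin gene, gave 15, 20.7 and 19.7 on the Aire-deficient arrays, against 10.1, 13.5 and 14.4 on the wild-type arrays (log2 difference 0.55 ± 0.33 SE, adjusted p = 0.495). F7, the factor that tissue factor binds to start clotting, had means of 31.5 in Aire-deficient and 37.4 in wild-type cells on its first probe set and 9.5 in Aire-deficient and 8.86 in wild-type cells on its second. F10, the factor that activates prothrombin, had means of 7.58 in Aire-deficient and 7.11 in wild-type cells on 1 probe set, and the other lay under the dim limit on all 6 arrays. F9, the factor missing in haemophilia B, was also under the dim limit on all 6 arrays. On each tested probe set of F7 and F10 the difference was smaller than its SE.

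The 2 probe sets of Proc, which encodes the anticoagulant protein C, did not agree. On 1 of them the signals were 5.73, 5.6 and 2.88 on the Aire-deficient arrays, against 10.4, 8.62 and 10.5 on the wild-type arrays, with no overlap (log2 difference -1.12 ± 0.46 SE, adjusted p = 0.293). On the other the means were 17.8 in Aire-deficient and 14.7 in wild-type cells (adjusted p = 0.819). F5, the cofactor of factor X, was too dim to be tested, with 1.8, 2.25 and 1.8 on the Aire-deficient arrays, against 6.62, 4.35 and 3.43 on the wild-type arrays. F3, the gene of tissue factor, which is made by many epithelia and not mainly by the liver, gave 3.42 to 3.91 on the Aire-deficient arrays and 1.8 to 13.1 on the wild-type arrays, also too dim to be tested. Plg, the plasminogen gene, was under the dim limit on all 6 arrays with 1 probe set, and with the other its means were 4.85 in Aire-deficient and 8.6 in wild-type cells (adjusted p = 0.705). That second probe set had its highest signal, 29.1, on wild-type array 2.

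Among 30 further genes of clotting and fibrinolysis, 23 had probe sets and 13 of 29 probe sets were tested. None was called in limma without the block, with 2 of the 13 at an unadjusted p under 0.05, and the median difference over the 29 was 0.07. The nearest was Tfpi, the inhibitor of the tissue factor pathway, with means of 26.9 in Aire-deficient and 5.91 in wild-type cells (log2 difference 2.19, adjusted p = 0.112, or 0.0117 with the block). The thrombin receptor gene F2r gave 13.6 in Aire-deficient and 25.2 in wild-type cells on 1 probe set (adjusted p = 0.226) and 12.8 in Aire-deficient and 8.95 in wild-type cells on another.

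Carriers had the lowest subgroup median. Hp encodes haptoglobin, which binds free haemoglobin. Its signals were 17.5, 11.7 and 9.87 on the Aire-deficient arrays, against 74.9, 37.2 and 29.9 on the wild-type arrays. All Aire-deficient arrays lay below all wild-type arrays, and the means of 12.7 (SD 0.42, n = 3) in Aire-deficient and 43.7 (SD 0.69, n = 3) in wild-type cells differed 3.45-fold (log2 difference -1.79 ± 0.41 SE, adjusted p = 0.0574 in limma, or 0.00545 with the block). With the 3' to 5' ratio as a covariate the difference was -2.12 (adjusted p = 0.0275).

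Rbp4 encodes the plasma carrier of retinol. It gave 1.8, 1.8 and 2.08 on the Aire-deficient arrays, against 13.9, 11.5 and 6.52 on the wild-type arrays. The difference was at least 1.83-fold (log2 difference -2.42 ± 0.57 SE, adjusted p = 0.065 in limma, or 0.0468 with the block), and -0.87 with the floor at the 40th percentile. Ttr, the thyroid hormone carrier that binds Rbp4 protein in plasma, gave 14, 8.99 and 8.1 on the Aire-deficient arrays, against 13.1, 8.18 and 8.08 on the wild-type arrays (log2 difference 0.08 ± 0.40 SE, adjusted p = 0.952). In both genotypes Ttr was highest on array 1.

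Alb, Ahsg and Afp were near the limit of measurement. Alb gave 1.8, 4.25 and 3.08 on the Aire-deficient arrays, against 12.3, 4.82 and 13.2 on the wild-type arrays, at least 1.67-fold lower without a test since only 2 arrays lay above the dim limit. Ahsg, the gene of the mineral-binding protein fetuin-A, gave 1.8, 1.8 and 3.3 on the Aire-deficient arrays, against 8.64, 5.87 and 3.52 on the wild-type arrays, likewise untested. Both genes were without overlap between the genotypes. Afp, the fetal counterpart of albumin, lay under the dim limit on all 6 arrays with each of its 2 probe sets.

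Hpx encodes hemopexin, which binds free haem. Its first probe set gave 1.8, 1.8 and 2.08 on the Aire-deficient arrays, against 5.78, 6.06 and 6.73 on the wild-type arrays (at least 1.12-fold, log2 difference -1.71 ± 0.64 SE, adjusted p = 0.252). Its second probe set gave 1.8, 7.55 and 6.5 on the Aire-deficient arrays, against 9.13, 1.8 and 10.1 on the wild-type arrays (adjusted p = 0.904). On that second probe set the genotypes overlapped widely, and wild-type array 2 lay at the floor. The first is of a probe set type whose design allows binding to several related sequences.

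**Figure D3:**
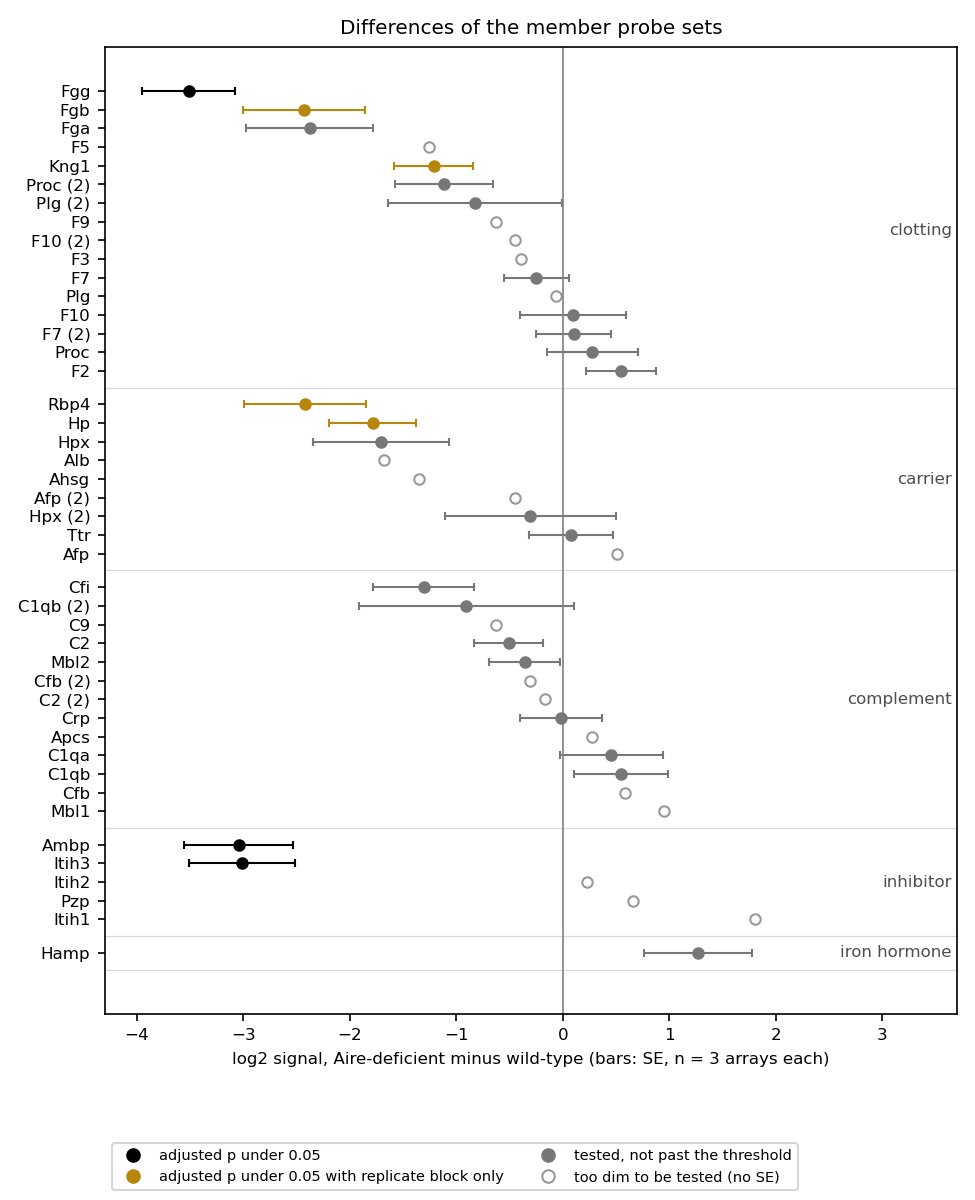
Log2 difference, Aire-deficient minus wild-type, of each member probe set, sorted within its subgroup; bars are SEs from limma over 3 arrays per genotype, black marks an adjusted p under 0.05, gold one under 0.05 with the replicate block only, and open circles are probe sets too dim to be tested. Fgg, Ambp and Itih3 are the 3 called, at -3.51, -3.04 and -3.01, and Itih1 stands at 1.81.

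The inhibitors split by direction. Itih genes encode the heavy chains of the inter-alpha-trypsin inhibitor family, which are linked to bikunin, a protease inhibitor cut from the product of Ambp, and which bind hyaluronan in tissue matrix. Ambp also encodes alpha-1-microglobulin, a haem-binding carrier. Ambp gave 2.83, 1.8 and 1.8 on the Aire-deficient arrays, against 29.1, 14.3 and 12.4 on the wild-type arrays. The groups were far apart, and the means of 2.09 (SD 0.38, n = 3) in Aire-deficient and 17.3 (SD 0.66, n = 3) in wild-type cells came to at least 3.12-fold (log2 difference -3.04 ± 0.51 SE, adjusted p = 0.0162 in limma).

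Itih3 encodes the heavy chain that forms pre-alpha-inhibitor with bikunin. Its signal was 1.8, the floor, on each Aire-deficient array, against 13.1, 12.2 and 19.2 on the wild-type arrays. This was at least 2.62-fold (log2 difference -3.01 ± 0.50 SE, adjusted p = 0.0155 in limma). With the processing of the 6 arrays kept, the adjusted p without wild-type arrays 1, 2 and 3 was 0.0658, 0.0699 and 0.097 for Itih3 and 0.0938, 0.0665 and 0.0571 for Ambp, so neither call held without any 1 of them. The call of Ambp was also lost without Aire-deficient array 2 (0.0531). Without a filter on dim signals the adjusted p was 0.0513 for Itih3 and 0.102 for Ambp.

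Itih1, the direct neighbour of Itih3 on chromosome 14, ran the other way. It gave 5.18, 6.98 and 6.88 on the Aire-deficient arrays and was at the floor of 1.8 on all 3 wild-type arrays. The groups did not overlap, and the difference of 1.81 was at least 1.14-fold higher in the Aire-deficient cells. Itih1 passed the dim limit on 2 arrays and was not tested, and when no filter was set its adjusted p was 0.0513. Itih2, a heavy chain of inter-alpha-inhibitor encoded on chromosome 2, lay under the dim limit on all 6 arrays. Pzp, a plasma inhibitor that traps proteases of many kinds, gave 7.73, 1.8 and 4.59 on the Aire-deficient arrays, against 5.01, 1.8 and 1.8 on the wild-type arrays, and overlapped.

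The promoters of Itih3, Itih1 and Ambp are shown in the same way, since the first 2 are neighbours with opposite differences and the last fell with Itih3.
Itih3 promoter, chr14:30923538-30923837, minus strand: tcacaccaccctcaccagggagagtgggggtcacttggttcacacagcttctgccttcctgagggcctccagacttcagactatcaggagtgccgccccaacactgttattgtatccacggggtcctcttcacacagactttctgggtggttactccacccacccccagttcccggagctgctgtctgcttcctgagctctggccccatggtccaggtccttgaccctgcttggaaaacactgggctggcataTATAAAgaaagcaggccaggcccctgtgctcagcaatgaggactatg
Itih1 promoter, chr14:30943240-30943539, minus strand: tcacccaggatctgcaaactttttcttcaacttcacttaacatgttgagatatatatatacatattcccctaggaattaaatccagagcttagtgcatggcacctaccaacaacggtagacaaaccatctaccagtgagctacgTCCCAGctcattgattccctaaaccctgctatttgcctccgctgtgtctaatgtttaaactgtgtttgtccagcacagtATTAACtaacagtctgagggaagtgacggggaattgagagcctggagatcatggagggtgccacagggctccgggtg
Ambp promoter, chr4:63154123-63154422, minus strand: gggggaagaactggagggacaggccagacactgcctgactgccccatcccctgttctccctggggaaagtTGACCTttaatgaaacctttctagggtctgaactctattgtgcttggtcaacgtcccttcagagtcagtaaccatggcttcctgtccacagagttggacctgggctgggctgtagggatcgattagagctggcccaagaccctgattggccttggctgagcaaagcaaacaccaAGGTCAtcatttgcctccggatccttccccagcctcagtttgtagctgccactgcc
Itih3 held the TATA motif, which began at base 4 after the annotated start, and none of the other 4 motifs. Itih1 held the HNF1 core 27 bases before its start and CTGGGA, on the opposite strand, 106 bases before it. Ambp held the nuclear receptor core at 180 and at 6 bases before its start. No motif of the 5 was shared by Itih3 and Ambp in these windows, which says only that these letters were not found there.

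The measured genes next to the called members did not share their fall past the threshold. Within 3 protein-coding genes on each side of the fibrinogen genes, 2 of 6 genes had probe sets. Plrg1, a splicing factor gene beside Fgb, averaged 47.8 in Aire-deficient and 43.5 in wild-type cells (adjusted p = 0.877), and Npy2r, a neuropeptide Y receptor gene, 6.26 in Aire-deficient and 16.4 in wild-type cells on its brighter probe set (log2 difference -1.39, adjusted p = 0.218). Around Itih3 and Itih1, 3 of 6 genes had probe sets. Itih4, another heavy chain gene, was too dim to be tested (1.8 in Aire-deficient and 3.48 in wild-type cells), Spcs1, a signal peptidase subunit gene, averaged 18.8 in Aire-deficient and 16.8 in wild-type cells (adjusted p = 0.876), and Nek4, a kinase gene next to Itih1, 6.02 in Aire-deficient and 2.48 in wild-type cells on its brighter probe set (log2 difference 1.28, adjusted p = 0.373). Near Ambp, 2 of 6 genes had probe sets. Orm1, the acute phase protein orosomucoid, averaged 7.57 in Aire-deficient and 14.5 in wild-type cells (adjusted p = 0.313), and Rgs3, a regulator of G protein signalling, 32.8 in Aire-deficient and 25.1 in wild-type cells (adjusted p = 0.648). The genotypes did not overlap for Orm1 and the brighter Npy2r probe set, both lower, or for the brighter Nek4 probe set, which was higher.

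**Figure D4:**
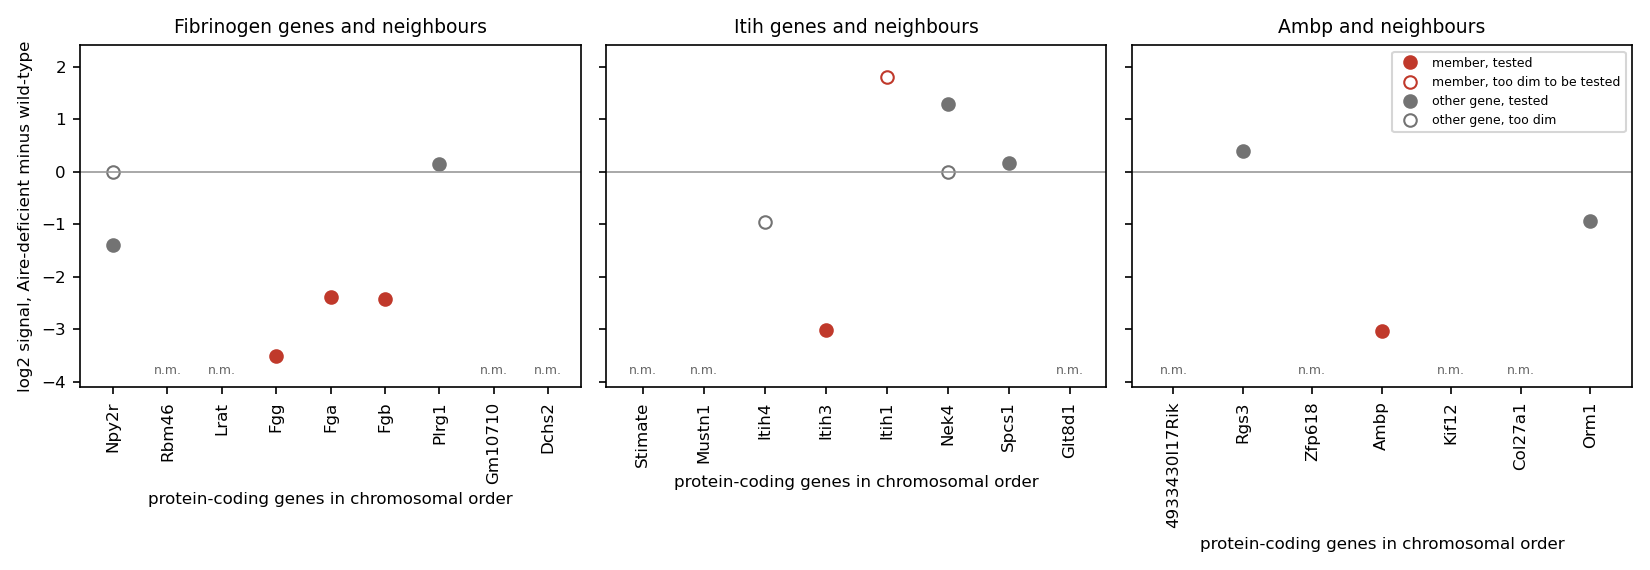
Log2 difference, Aire-deficient minus wild-type, of each probe set of the fibrinogen genes, of Itih3 and Itih1, and of Ambp, with 3 protein-coding genes on each side in the order of GRCm38.p6; n.m. marks genes that were not measured here, and open circles probe sets too dim to be tested. With the floor at 1.8 the members lie between -2.38 and -3.51, except Itih1 at 1.81, and Plrg1 lies at 0.14 and Spcs1 at 0.16. Of these members Fgg, Itih3 and Ambp were called.

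Complement and soluble recognition genes included no calls, with or without the block. Cfi encodes factor I, the protease that inactivates complement fragments C3b and C4b. It gave 5.73, 2.6 and 7.4 on the Aire-deficient arrays, against 11.5, 13.7 and 10.6 on the wild-type arrays, with no overlap (log2 difference -1.31 ± 0.48 SE, adjusted p = 0.237 in limma). C2, a protease of the classical pathway, gave 13.4 to 19.2 on the Aire-deficient arrays and 19.7 to 28.5 on the wild-type arrays, without overlap and less than 2-fold apart (adjusted p = 0.523). Its second probe set was under the dim limit on all 6 arrays. Cfb, the factor B gene that neighbours C2, was too dim to be tested with both probe sets. Its means were 6.43 in Aire-deficient and 4.31 in wild-type cells on 1 probe set, where each Aire-deficient array lay above each wild-type array. They were 3.57 in Aire-deficient and 4.43 in wild-type cells on the other probe set, with overlap.

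Of the pattern recognition members, Mbl2, a mannose-binding lectin of plasma, gave 8.99 to 10.1 on the Aire-deficient arrays, against 11.4 to 13.6 on the wild-type arrays (log2 difference -0.36 ± 0.33 SE, adjusted p = 0.68). Its relative Mbl1 gave 7.07, 1.8 and 3.3 on the Aire-deficient arrays, was at the floor on each wild-type array, and was too dim to be tested. The pentraxin gene Crp, a weak acute phase gene in mice, averaged 10.6 in Aire-deficient and 10.8 in wild-type cells (log2 difference -0.02 ± 0.38 SE, adjusted p = 0.988). Apcs, the other pentraxin and the main one of the mouse acute phase, was under the dim limit on all 6 arrays. C9, the pore-forming component of the membrane attack complex, was at the floor on 5 of the 6 arrays and at 6.59 on wild-type array 2.

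C1q differs from the other members in that macrophages, not hepatocytes, are its main known source. C1qa gave 9.32, 10.8 and 19.9 on the Aire-deficient arrays, against 7.47, 5.87 and 17.8 on the wild-type arrays (adjusted p = 0.731). For C1qb 1 probe set gave 1.8, 1.8 and 29.5 on the Aire-deficient arrays, against 3.52, 11 and 16.4 on the wild-type arrays (adjusted p = 0.744), and the other gave 8.6, 12.9 and 7.73 on the Aire-deficient arrays, against 6.32, 9.47 and 4.63 on the wild-type arrays (adjusted p = 0.624). C1qa and the first of these were highest on array 3 in both genotypes. The third chain, C1qc, gave 1.8, 2.25 and 30.7 on the Aire-deficient arrays, against 12.6, 10.7 and 16.7 on the wild-type arrays, and Csf1r, a receptor of macrophages, 2.83, 14.6 and 28.9 on the Aire-deficient arrays for 1 probe set, against 25.6, 28.7 and 39.7 on the wild-type arrays, so both were also highest on array 3 of each genotype. The other Csf1r probe set did not share this, with 11.8, 8.45 and 6.6 on the Aire-deficient arrays, against 12.2, 14.4 and 9.36 on the wild-type arrays. Cd14, another macrophage marker, was lowest on array 3 of each genotype, at 32.3 in Aire-deficient and 92.2 in wild-type cells. The summed macrophage markers were highest on Aire-deficient array 3, at 305, and lowest among the wild-type arrays on array 3, at 318.

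Among 27 further complement genes, 21 had probe sets and 14 of 25 probe sets were tested. None was called in limma without the block, with 6 of the 14 at an unadjusted p under 0.05, and 3 were lower with it: the chaperone clusterin gene Clu, with means of 24.2 in Aire-deficient and 67.1 in wild-type cells on 1 probe set (adjusted p = 0.0527, or 0.0177 with the block) and 37.4 in Aire-deficient and 66.6 in wild-type cells on another (0.473), C4bp, a plasma inhibitor of the classical pathway, with 6.22 in Aire-deficient and 18.7 in wild-type cells (0.0527, or 0.0239), and Serping1, the C1 inhibitor, with 10.1 in Aire-deficient and 25.1 in wild-type cells (0.0896, or 0.0385). The median over the 25 was -0.15.

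Hamp encodes hepcidin, the liver hormone that lowers iron export from cells. It gave 16.9, 36 and 36.8 on the Aire-deficient arrays, against 10.1, 6.48 and 24.7 on the wild-type arrays. The genotypes overlapped, as wild-type array 3 lay above Aire-deficient array 1, although the Aire-deficient array was higher in each replicate pair (log2 difference 1.27 ± 0.51 SE, adjusted p = 0.281 in limma, or 0.082 with the block).

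Other liver genes were set beside the members. Of 35 further genes of proteins secreted by the liver, 25 had probe sets, and 3 of the 18 tested were lower in limma. These were Apoa1, the main protein of high density lipoprotein, with means of 9.71 in Aire-deficient and 58 in wild-type cells (adjusted p = 0.00639), and both probe sets of the major urinary protein gene Mup3, with 2.87 in Aire-deficient and 26.2 in wild-type cells (0.00586) and 2.85 in Aire-deficient and 26.5 in wild-type cells (0.0107), which may not separate it from its close relatives. With the block a probe set of Igf1, a growth factor made by liver and many other tissues, was also lower, at 106 in Aire-deficient and 234 in wild-type cells (adjusted p = 0.0172, against 0.111 without it). Hepatocyte enzymes and surface receptors made up a list of 20 genes, of which 17 had probe sets, and 1 of 14 tested probe sets was lower, that of the urea cycle gene Cps1, with 3.56 in Aire-deficient and 21.1 in wild-type cells (adjusted p = 0.0329). The gluconeogenic gene Fbp1 averaged 2.42 in Aire-deficient and 11.8 in wild-type cells (0.0918), while Hal, a histidine-degrading enzyme also of skin, averaged 186 in Aire-deficient and 99.5 in wild-type cells (0.152). Of the 20 probe sets of this list, 6 lay under the dim limit on all 6 arrays. They were those of the asialoglycoprotein receptor genes Asgr1 and Asgr2, the urea cycle gene Otc, the bile acid gene Cyp7a1 and Tat. Others lay well above it in both genotypes, such as Pck1, with 33.9 in Aire-deficient and 48.3 in wild-type cells. Fah averaged 25.1 in Aire-deficient and 24.9 in wild-type cells.

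Of 18 genes of liver transcription factors 16 had probe sets, and none of the 11 tested probe sets was called in limma without the block, with 2 at an unadjusted p under 0.05, and 1 was higher with it. That was a probe set of Stat3, which carries the interleukin 6 signal, with means of 105 in Aire-deficient and 46.8 in wild-type cells (adjusted p = 0.157, or 0.0328 with the block). Its other probe set averaged 218 in Aire-deficient and 119 in wild-type cells (0.293). Cebpa, a C/EBP factor, averaged 31.2 in Aire-deficient and 51.6 in wild-type cells (0.377). The median over the 20 probe sets of the list was 0.07.

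Markers of other cells were read on the same arrays, since the sorted cells could hold others. Granulocytes and macrophages carry CD45 and the cells were sorted as CD45-, but how far the sort removed them was not tested. Granulocyte markers were lower in the Aire-deficient cells: 6 of 7 tested probe sets were called lower, and the summed signal of the 9 was 67.9 to 99.8 on the Aire-deficient arrays, against 293, 833 and 482 on wild-type arrays 1 to 3. Ly6g, the surface marker of neutrophils, was at the floor on all 3 Aire-deficient arrays, against 50.9, 12.8 and 28.9 on the wild-type arrays, while Elane, a protease of their precursors, was under the dim limit on all 6. Granulocytes also make haptoglobin. Hp was highest on wild-type array 1, where the granulocyte sum was the lowest of the wild-type arrays. Among the called granulocyte probe sets, those of Ly6g and Ltf were also highest on array 1. Those of S100a8, S100a9, Camp and Ngp were highest on array 2. The part of granulocytes in the difference of Hp was not tested. The summed macrophage markers were 254 to 305 on the Aire-deficient arrays, against 318 to 428 on the wild-type arrays, with no probe set of 7 tested called in limma without the block and 3 at an unadjusted p under 0.05. With the block Cd14 was lower and Cd68 higher, and Itgam and Marco lay under the dim limit on all 6 arrays. Their part in the C1q values was not tested either.

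**Figure D5:**
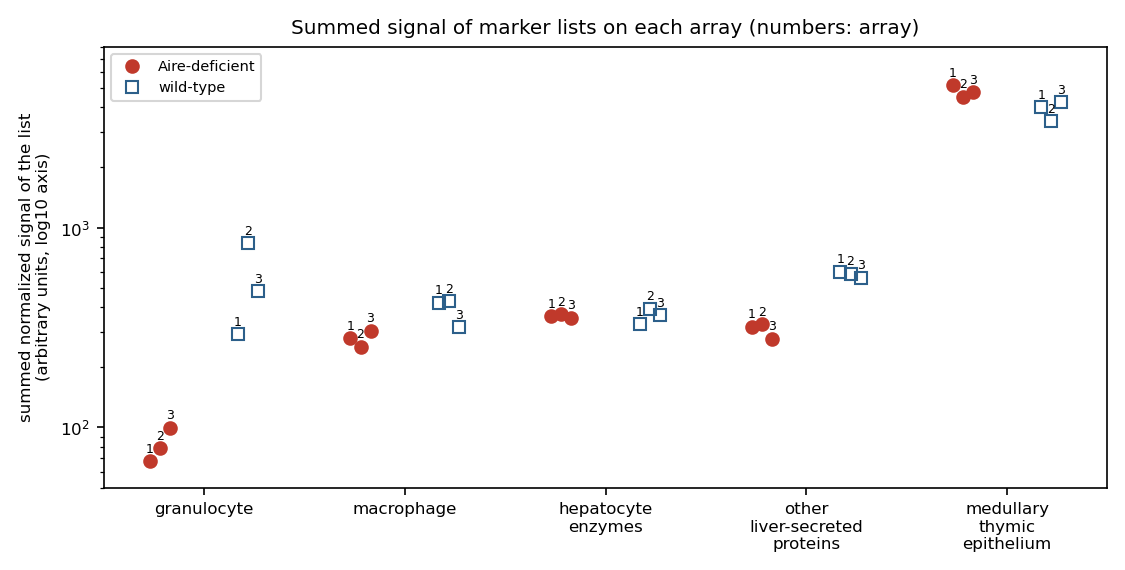
Summed normalized signal (log10 axis, arbitrary units) of 5 gene lists (granulocyte, macrophage, hepatocyte enzymes, further liver-secreted proteins, medullary thymic epithelium) on each Aire-deficient (filled circles) and wild-type array (open squares), numbered by array. The granulocyte sum is 67.9 to 99.8 on the Aire-deficient arrays and at least 293 on the wild-type arrays. The sum of further liver-secreted proteins is 278 to 329 on the Aire-deficient and 562 to 601 on the wild-type arrays. Its brightest probe set, of Igf1, gave 77.7 to 124 on the Aire-deficient and 175 to 282 on the wild-type arrays, and the list median difference was -0.38. The sum of hepatocyte enzymes overlaps between the genotypes. Its brightest probe set, of Hal, gave 165 to 208 on the Aire-deficient and 83 to 112.5 on the wild-type arrays, while the list median difference was -0.40.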

How the data were processed

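Expression was measured on 1-colour oligonucleotide arrays in 3 Aire-deficient and 3 wild-type pools. The authors deposited linear signal intensity per probe set, to 1 decimal. Not given in the sources used here are the software, background correction and scaling behind these intensities, and no detection calls were used. Of 12488 probe sets, 66 controls were left out. Of the 12422 used, 10833 had 1 gene in the platform annotation, 396 several and 1193 none; 10817 matched GRCm38.p6 by Entrez identifier, which served for names, gene order and RefSeq promoters.

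Intensities were quantile normalized, raised to the pooled 20th percentile (1.8) and log2 transformed. The 7768 probe sets with 3 or more of 6 arrays over 5.53, the pooled 40th percentile, were tested in R 4.3.3 with limma 3.58.1 (lmFit, then eBayes with trend, 2-sided, Benjamini-Hochberg over all tested, threshold 0.05). No pseudocount was used; the floor shortens folds of dim probe sets. With few arrays the precision is limited. The p-values set the genotype difference against the spread between arrays, in which pool, amplification and hybridisation are mixed. The fit was tested on simulated data. Figures used matplotlib 3.10.9 in Python 3.11.15.

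Same-numbered arrays of the 2 genotypes deviated together from their group means (r = 0.37, 0.20 and 0.19 over probe sets, against -0.25 to 0.07 for other pairs). On this basis alone the replicate number was used as a block in an alternative fit. The main fit did not use the pairing. Among the alternatives were the block, a covariate for 3' bias, each array left out, array weights, and changes of scaling, floor, filter, variance model and probe sets per gene. Members were all accounted for, with values on every array for those called with or without the block or without overlap at 2-fold or more. From other lists, genes called with or without the block and at most 2 more by smallest p were named. Neighbouring genes, markers, the dim hepatocyte genes, Pck1, Fah, the FOXA genes and Hnf4a were named outside that rule, with their values seen. Members, lists, motifs and tests were chosen with earlier results of these data known. The remaining marker lists (cortical thymic epithelium, thymocyte, B cell, dendritic cell, endothelium, fibroblast, adipocyte) are given in the closing section.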

Additional observations from a re-analysis of the deposited data

How the results depend on the processing

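The count of 3 member probe sets called lower was within 1.5 times on the values as deposited, after median scaling, with the floor at the 40th percentile, with 1 probe set per gene (3 each), with the filter on the mean over 6 arrays (2) and with the 3' bias term (4). It was 7 with the replicate block, 7 without a variance trend, 5 with array weights and 0 without a filter, where 44 were tested. Leaving out 1 array gave 0 to 3, with 0 where the filter was run anew without a wild-type array, since members bright only on wild-type arrays are then no longer tested. With the 6-array processing kept, it was 1 without each wild-type array. The count called higher was 0 under each of the 22 alternatives. Among the members the block changed no call other than those of Fgb, Kng1, Hp and Rbp4. The median over all members was -0.0654 with the floor at the 40th percentile and -0.28 with the 3' bias term. For clotting it was -0.17 with that floor and -0.73 with 1 probe set per gene, and for carriers -0.24 with that floor. The complement median turned to 0.13 with 1 probe set per gene and to 0.0223 with the 3' bias term. It ranged from -0.33 to 0.0398 with 1 array left out, with values above 0 when Aire-deficient array 2 was left out (0.0192, or 0.0223 with the 6-array processing kept) or wild-type array 2 (0.0398, or 0.0337). Causes not stated were not tested. The 15 member probe sets called with or without the block, or separated by 2-fold or more, kept their direction in every alternative that tested them. All 15 were without overlap, and such a probe set cannot change direction when an array is left out with the 6-array processing kept. That part of the outcome was fixed by how the 15 were chosen. F5, Alb, Ahsg and Itih1 had only 1 alternative, without a filter, which leaves the difference as it was. Single values of the other members were not run under the alternatives. Depth here is signal over background: 18 of 44 probe sets were too dim to be tested, and folds given as "at least" are lower bounds set by the dim limit.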

Other observations

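The 2 probe sets annotated to both C4a and C4b, complement genes that cannot be told apart on them, were not counted among the members. The brighter one gave 3.15, 1.8 and 6.12 on the Aire-deficient arrays, against 9.85, 11.7 and 14.4 on the wild-type arrays, without overlap (log2 difference -1.86 ± 0.54 SE, adjusted p = 0.13 in limma, or 0.0549 with the replicate block), and the other lay under the dim limit on all 6 arrays.

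The 14 member probe sets that were lower by at least 2-fold without overlap did not share 1 brightest wild-type pool: 5 had their highest wild-type signal on array 1, 5 on array 2 and 4 on array 3. The fibrinogen chains and Kng1 were highest on array 2, and Hp, Ambp, Rbp4, Ahsg and F5 on array 1.

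Of the remaining marker lists, 1 probe set of cortical thymic epithelium, among 5 tested, was called higher in limma, that of the chemokine gene Ccl25 (adjusted p = 0.0345). None was called of 8 for thymocytes, 4 for B cells, 5 for dendritic cells, 4 for endothelium, 6 for fibroblasts and 3 for adipocytes in limma without the block, and at an unadjusted p under 0.05 there were 0, 2, 1, 0, 1 and 0. With the block, 1 B cell probe set was lower and 1 higher, and 1 of dendritic cells was lower.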
